A study of Homo sapiens with 2 samples.

Results

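Shared JUNB peaks in gene deserts are places that JUNB CUT&RUN listed in both untreated and etoposide-treated IMR-90 cells and that lie far from protein-coding genes. A member was a peak of the untreated list on chromosomes 1 to 22 or X that had at least 1 bp in common with an etoposide peak and whose summit was more than 100 kb from every RefSeq protein-coding gene. There were 2903 members among 16610 shared untreated peaks, 17.5% (95% Wilson interval 16.9% to 18.1%), out of 32550 untreated and 25739 etoposide peaks on these chromosomes. IMR-90 is a human lung fibroblast line. CUT&RUN cuts chromatin beside an antibody-bound protein and sequences the released fragments. The groups were 1 library of cells that received nothing and 1 library of cells given etoposide, which blocks topoisomerase II and so leaves breaks in both DNA strands; its dose and time are not given in the sources used here. With 1 library per condition no difference between conditions has a replicate check, and the treatment was not tested. The members were thus chosen by the presence of a peak in both lists and by distance, and their number is a description.

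JUNB is a subunit of AP-1, a dimer of JUN and FOS family proteins that binds the short palindrome TGANTCA (N is any base) and is known in fibroblasts for acting at enhancers, many of them far from genes. Gene deserts are long stretches without protein-coding genes, and some are known to carry distant enhancers of the developmental regulators at their edges. Deserts beside centromeres are of another kind. They hold satellite arrays and other repeats, which the GRCh38 assembly represents in part by modelled sequence, and short reads from repeats can match many places.

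The members were therefore divided by position. Those with a summit within 2 Mb of a centromeric band, or of the large heterochromatic bands of chromosomes 1, 9 and 16, numbered 369 (12.7% of members, 11.6% to 13.97%) and are called next to centromeres. The remaining 2534 are called other deserts. Of the peaks called next to centromeres, 296 were inside the bands themselves. The bands were written by hand to the nearest Mb. Median distance from the nearest protein-coding gene was 1050 kb next to centromeres and 230.1 kb in other deserts. The name gene desert holds for protein-coding genes: 899 of the 2534 summits in other deserts (35.5%) lay inside an annotated gene that makes no protein, nearly all of them long noncoding RNA genes, and 214 were more than 100 kb from every annotated gene. Next to centromeres 26 of 369 summits were inside such a gene and 260 were over 100 kb from every annotated gene.

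Just inside 100 kb were a peak 100008 bp from ITPRID2 with 23 untreated and 20 etoposide fragments at the summit, and a peak 100.1 kb from IGF1R, the insulin-like growth factor receptor, with 20 and 10. Just outside were a peak 99.8 kb from ARHGAP28 with 55 and 38 fragments and a peak 99.8 kb from SLC38A4 with 34 and 14. Here and below, fragments are the number stacked at a peak's summit, worked out from the authors' fold and -log10 p.

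Sequence could be shown only where a desert peak met the start of a noncoding gene, because promoter windows were the genome sequence used here. These windows run from 250 bases before to 50 after a gene's start (RefSeq, GRCh38.p14). Of the members, 14 had their untreated summit in a window, all in other deserts, and 8 of these 14 (57.1%) had TGANTCA in the window (a motif that reads the same on both strands), against 7.71% of all 35116 windows. For 4 of the 14 the window had 2 or more such sites, against 0.515% of all windows. These counts are of sites in the window, which need not lie in the peak. The sites of LOC124903079 and LINC03108 and the second site of LINC01271 lay inside the untreated peak. The first site of LINC01271 and all sites of CYTOR, MIR4435-2HG, LOC124906302, LOC124902205 and LOC105376367 lay outside it. CYTOR and MIR4435-2HG have 241 consecutive bases in common, so they are not separate cases. The windows shown are those of the 4 peaks with a site and the most untreated fragments, and that of LINC01271, the other peak with 2 sites. They are printed from 5′ to 3′ on the gene's strand, and capitals mark TGANTCA.
CYTOR, chr2:87455177-87455476, plus strand: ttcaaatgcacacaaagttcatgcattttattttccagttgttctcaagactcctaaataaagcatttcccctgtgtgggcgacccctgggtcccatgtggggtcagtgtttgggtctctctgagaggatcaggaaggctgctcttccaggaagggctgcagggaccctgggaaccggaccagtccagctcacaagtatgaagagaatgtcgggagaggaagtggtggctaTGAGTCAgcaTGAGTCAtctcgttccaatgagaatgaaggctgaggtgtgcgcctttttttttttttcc
MIR4435-2HG, chr2:111495112-111495411, minus strand: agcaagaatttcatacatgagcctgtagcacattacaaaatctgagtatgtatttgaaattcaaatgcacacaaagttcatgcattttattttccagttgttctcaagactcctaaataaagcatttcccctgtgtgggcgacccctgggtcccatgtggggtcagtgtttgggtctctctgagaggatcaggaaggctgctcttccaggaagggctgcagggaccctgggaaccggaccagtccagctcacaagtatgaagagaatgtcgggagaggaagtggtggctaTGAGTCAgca
LOC124903079, chr12:114933533-114933832, minus strand: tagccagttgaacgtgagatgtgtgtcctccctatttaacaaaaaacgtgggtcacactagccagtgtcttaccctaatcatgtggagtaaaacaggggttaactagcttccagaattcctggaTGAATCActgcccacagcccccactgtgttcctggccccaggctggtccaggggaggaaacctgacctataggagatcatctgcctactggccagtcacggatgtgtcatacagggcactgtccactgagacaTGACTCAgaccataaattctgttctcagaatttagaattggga
LINC01271, chr20:50321293-50321592, minus strand: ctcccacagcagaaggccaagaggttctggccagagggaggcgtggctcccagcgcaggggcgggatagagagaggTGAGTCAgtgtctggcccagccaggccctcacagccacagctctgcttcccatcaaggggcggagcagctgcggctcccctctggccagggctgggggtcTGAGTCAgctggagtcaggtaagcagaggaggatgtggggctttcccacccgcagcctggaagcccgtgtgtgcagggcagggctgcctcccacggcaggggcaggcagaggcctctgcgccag
LINC03108, chr1:234980727-234981026, minus strand: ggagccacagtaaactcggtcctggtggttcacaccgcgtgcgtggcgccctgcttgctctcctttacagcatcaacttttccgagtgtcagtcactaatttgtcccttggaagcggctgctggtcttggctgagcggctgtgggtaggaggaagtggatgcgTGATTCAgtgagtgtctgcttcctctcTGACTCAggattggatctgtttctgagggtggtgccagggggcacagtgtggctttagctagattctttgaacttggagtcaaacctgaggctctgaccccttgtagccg

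The CYTOR window has sites from bases 232 and 242, counted from 1 at its 5′ end. CYTOR is a long noncoding RNA, and its peak at chr2:87454904-87455397 had 64 untreated and 49 etoposide fragments. The sites lie past the end of this peak in each list. The MIR4435-2HG window, on the same chromosome, has 241 consecutive bases in common with the CYTOR window. Its peak at chr2:111495148-111495378 had 50 and 49 fragments, and its site, from base 291, lies outside that peak in each list. How reads of these 2 places were assigned is not given in the sources used here, so their values cannot be separated with certainty. The peak at LOC124903079, 249.6 kb from the T-box regulator gene TBX3, had 66 untreated and 37 etoposide fragments, and its second site starts at base 258. LINC01271 lies 128.7 kb from CEBPB, a leucine-zipper regulator gene, and its peak had 28 untreated and 12 etoposide fragments, with sites from bases 77 and 177. LINC03108 had 53 and 40 fragments, with sites from bases 164 and 191.

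The sites lay to the side of the listed summits. How the peak caller extended reads, which sets where a summit falls, is not given in the sources used here, so these distances are to the listed summit alone. In these 5 windows the nearest site was between 71 bp (LINC01271) and 162 bp (LINC03108) from the untreated summit. The same held over all windows on these chromosomes. Of 206 pairs of an untreated summit and a site in one window, 15 (7.28%) were up to 50 bp apart and 162 (78.6%) were over 50 and up to 200 bp apart. In the etoposide list these were 11 (6.63%) and 139 (83.7%) of 166 pairs. Summit and site had to lie in one window of 300 bases, which limits these distances. The shares for positions at random in a window were not worked out. A match of these letters does not show that JUNB was bound there.

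Next to centromeres the shared peaks were stronger in the etoposide library, and elsewhere they were not. The 369 peaks next to centromeres had a median of 16 fragments without treatment (quartiles 11 and 29) and 22 with etoposide (15 and 37). Other desert peaks had 19 (13 and 27) and 15 (11 and 21). The etoposide number was the higher of the pair at 279 of 369 places next to centromeres (75.6%, 71.0% to 79.7%), at 619 of 2534 in other deserts (24.4%) and at 3462 of all 16610 shared pairs (20.8%).

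**Figure D1:**
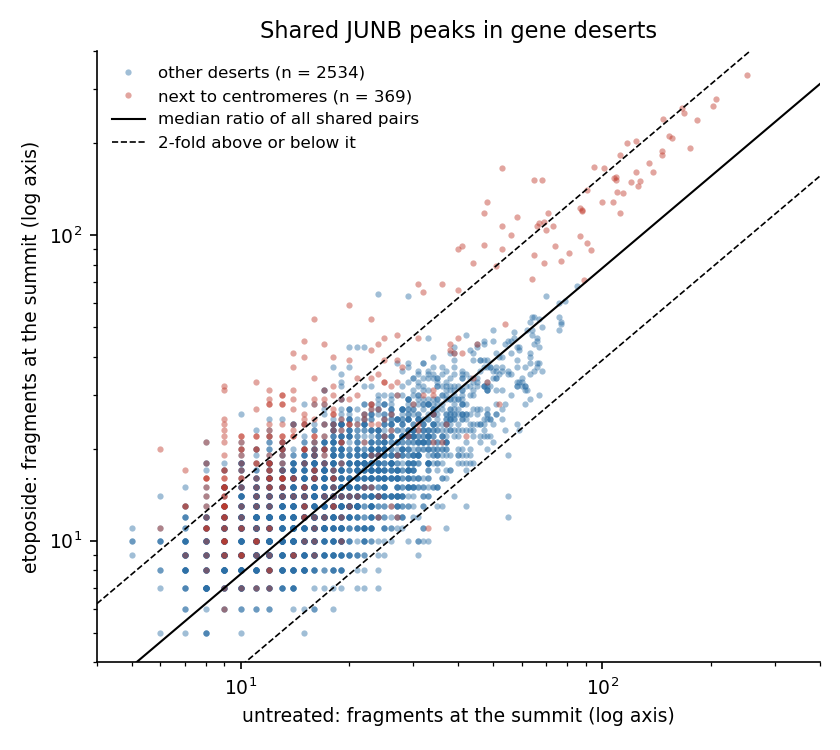
Fragments at the summit in the untreated (x) and etoposide (y) libraries for each shared desert peak, on log axes; the solid line is the median ratio of all shared pairs, 0.778, and the dashed lines are 2-fold above and below it. Peaks next to centromeres (red) lie mostly above the solid line, up to 252 untreated and 332 etoposide fragments, and other desert peaks (blue) lie around it.

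Each ratio of etoposide to untreated fragments was divided by the median ratio of all shared pairs, 0.778, so that 1 means a place that moved with the typical shared peak. The median of this relative ratio was 1.71 next to centromeres (quartiles 1.35 and 2.19) and 1.04 in other deserts (0.830 and 1.29). Shared peaks inside genes had 0.983 and those up to 100 kb from genes 0.980. The value for other deserts lies so near 1 that it turned with the scaling, to 0.965 when divided by the relative depth of the libraries and 0.807 undivided, while that next to centromeres stayed above 1, at 1.595 and 1.33.

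A pair was counted as higher or lower when its relative ratio was at least 2-fold from 1. Over all shared pairs 3.2% were higher and 1.96% lower by this rule. Next to centromeres 131 of 369 were higher (35.5%, 30.8% to 40.5%) and 1 was lower. In other deserts 84 of 2534 were higher (3.32%, 2.69% to 4.09%) and 32 were lower (1.26%, 0.896% to 1.78%). The shares over all pairs include the pairs next to centromeres. Among shared peaks inside genes 2.25% were higher and 1.95% lower, and among those up to 100 kb from genes 2.41% and 2.43%. Without division by the median, 55 pairs next to centromeres were higher (14.9%, against 0.843% of all pairs). Among pairs with at least 20 untreated fragments, where counting error is smaller, 37 of 141 were higher next to centromeres (26.2%) and 6 of 1155 in other deserts (0.520%), against 59 of all 7679 such pairs (0.768%).

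**Figure D2:**
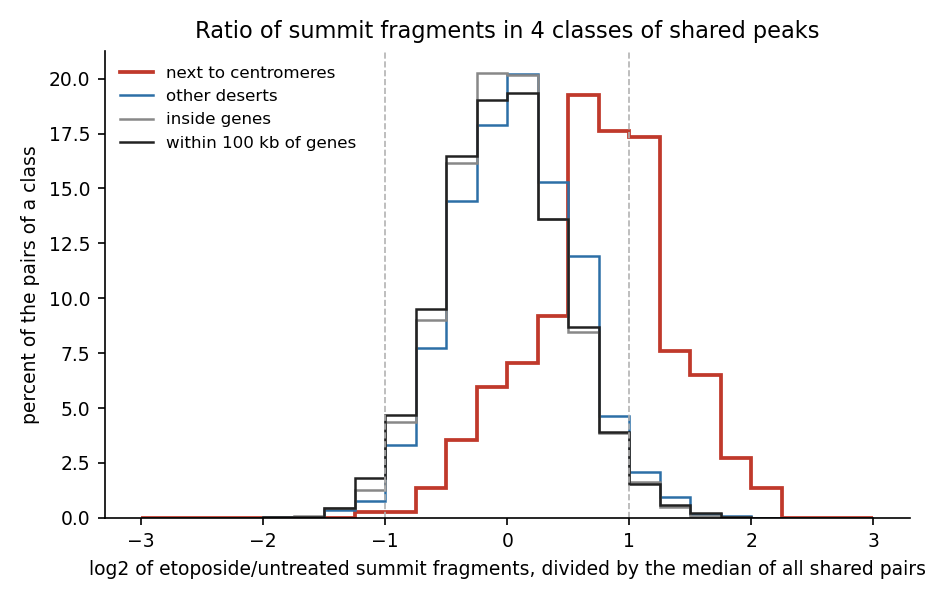
Share of pairs (y, percent) by the log2 relative ratio of summit fragments (x) in 4 classes of shared peaks; dashed lines mark 2-fold. The curve next to centromeres is moved to the right, with 35.5% of pairs beyond 2-fold higher. The 3 other curves lie close together, that of other deserts slightly to the right.

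The local background moved in the same direction. This is the number of fragments the peak caller expected at the summit from its surroundings. It may not be separate from the summit fragments, as whether the surroundings included the peak itself is not given in the sources used here. Its median next to centromeres was 0.889 fragments without treatment and 1.29 with etoposide, whereas in other deserts it was 1.54 and 1.12. The background was higher in the etoposide library at 309 of 369 places next to centromeres (83.7%) and at 302 of 2534 in other deserts (11.9%). Relative to the median background ratio of all shared pairs, 0.687, the ratio was 2.09 next to centromeres. With the background subtracted from the fragments, 34.96% of pairs next to centromeres were at least 2-fold higher, against 3.58% of all pairs. Median fragments there, 16 and 22, far exceeded the median background, so at most places this subtraction could change the ratio little. The authors' fold over background had medians of 7.31 untreated and 7.94 etoposide next to centromeres, against 7.53 and 7.34 over all shared pairs.

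**Figure D3:**
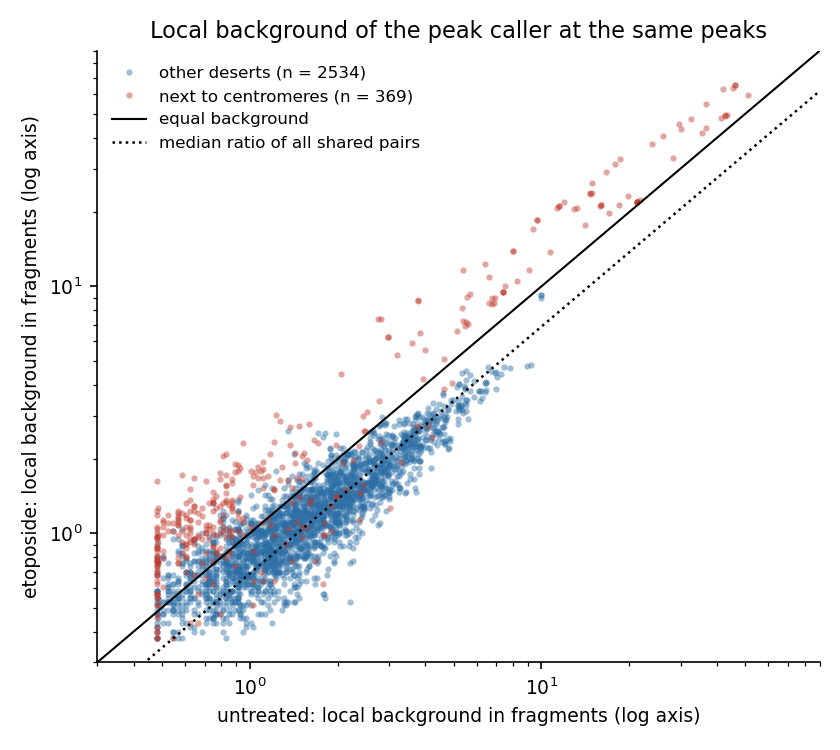
Local background at the summit in the untreated (x) and etoposide (y) libraries, in fragments on log axes, for the same peaks; the solid line marks equal values and the dotted line the median ratio of all shared pairs, 0.687. Peaks next to centromeres (red) are mostly above the solid line, reaching 51.0 untreated and 65.1 etoposide fragments, and other desert peaks (blue) mostly below it.

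Peaks next to centromeres differed widely in background. At 78 of them the background was over 3 times the median of the list in both libraries, with medians of 13.1 and 20.97 fragments, and these had 79 untreated and 118 etoposide fragments at the summit. The other 291, below that level in at least 1 library, had median backgrounds of 0.768 and 1.12, with 14 and 19 fragments. The relative ratio was 1.72 in the first set and 1.71 in the second. In other deserts the 101 peaks on such a high background in both libraries had a relative ratio of 0.945, and 0 of them were 2-fold higher.

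The bands and their margins differed. The 296 peaks inside the bands had a relative ratio of 1.85, and 122 of them (41.2%) were at least 2-fold higher. The 73 peaks in the 2 Mb beside the bands had 1.29, with 9 higher (12.3%). A further 361 shared peaks lay in the same bands and margins but up to 100 kb from a protein-coding gene, and these had 1.04, with 15 higher (4.16%).

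Of the 21 chromosomes with such peaks, 20 had a median relative ratio above 1, and the exception was chromosome 8 with 0.846 over 8 peaks; undivided, 16 of the 21 had a median ratio above 1. Chromosome 1 had the most, 77 peaks, with a ratio of 2.06 and 42 at least 2-fold higher. Chromosome 5 had 58 peaks (1.88, 25 higher), chromosome 19 had 48 (1.77, 17 higher) and chromosome 4 had 34 (1.93, 15 higher). All 4 peaks of chromosome 12 were higher, with relative ratios from 2.10 to 2.51. Chromosome 18 was close to the typical pair, at 1.02 over 7 peaks. Without chromosome 1, 89 of the other 292 peaks were higher (30.5%). How reads from repeats were assigned is not given in the sources used here, so the chromosomes may not be separate measurements.

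**Figure D4:**
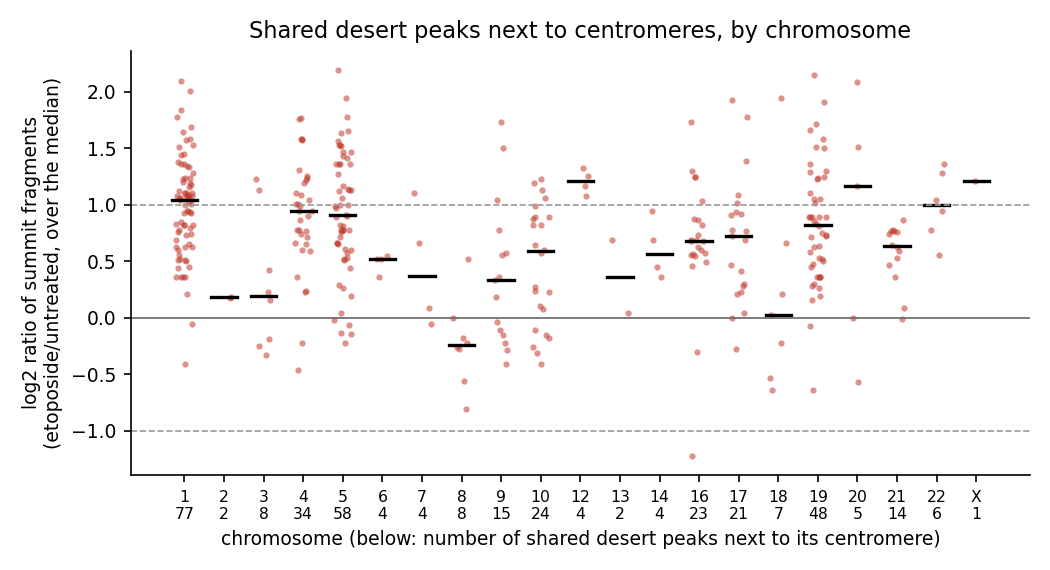
Log2 relative ratio of summit fragments (y) of each shared desert peak next to a centromere, by chromosome (x, with the number of peaks under it); black bars are medians, dashed lines mark 2-fold. Medians are above 0 on 20 of 21 chromosomes (16 of 21 if the ratios are not divided) and highest on those with few peaks, such as chromosomes 12, 20 and X.

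The strongest peaks of both lists by -log10 q were among those next to centromeres. Control libraries are not given in the sources used here, so signal at these places without the JUNB antibody was not tested. At chr3:93470354-93470777, 402.5 kb from PROS1 (the gene of the anticoagulant protein S), there were 117 untreated and 199 etoposide fragments, a relative ratio of 2.19 (1.73 to 2.77, exact binomial interval, which covers counting error alone). Its background was 3.19 and 5.27, and its fold over background, 28.2 and 31.9 in the authors' lists, was the highest of all shared pairs in each list. At chr1:143202431-143202894, 699.7 kb from the histone gene H3-7, there were 166 and 260 fragments on backgrounds of 9.68 and 18.6, and the 2 summits were 1 bp apart. At chr4:49709296-49709835, 647.4 kb from CWH43, a gene for remodelling of lipid anchors, there were 183 and 238 fragments (1.67, 1.37 to 2.04).

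Chromosome 17 gave a further strong place, chr17:26603716-26604347, 690.2 kb from WSB1, with 100 and 128 fragments on backgrounds of 3.94 and 4.21. The peak at chr5:49630763-49631448, 765.2 kb from EMB (embigin, an adhesion protein), changed least of the strongest, with 112 and 118 fragments (1.35, 1.04 to 1.77). Its background was 5.68 without treatment and 9.28 with etoposide. A second place in the same stretch of chromosome 1, chr1:143232767-143233330, had 156 and 208 fragments (1.71, 1.39 to 2.12).

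The largest ratios, among pairs with at least 20 fragments in either library, belonged to peaks with 6 to 16 untreated fragments, which passed that minimum through the etoposide library alone. Near EMB, at chr5:49479110-49479311, there were 9 untreated and 32 etoposide fragments, a relative ratio of 4.57 (2.13 to 10.9). On chromosome 19, at chr19:26203851-26204052, there were 9 and 31 fragments (4.43, 2.06 to 10.6). On chromosome 1, at chr1:123980048-123980249, there were 6 and 20 (4.29, 1.66 to 13.04), and on chromosome 20, at chr20:28495587-28495788, there were 16 and 53 (4.26, 2.40 to 7.98) on backgrounds of 2.75 and 7.37. These places were picked after their values were seen, for the largest ratios, and the numbers behind them are small.

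The members farthest from any protein-coding gene were on chromosomes 16 and 1. At chr16:38276030-38276471, 3886 kb from the nearest, there were 36 untreated and 69 etoposide fragments (relative ratio 2.46, 1.62 to 3.797), and 3877 kb away on the same chromosome there were 12 and 31. At chr1:125182148-125182726, 3719 kb from the nearest, there were 207 and 279 fragments on backgrounds of 45.3 and 63.8.

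Runs of members within 10 kb of each other held 134 of the 369 next to centromeres (36.3%) and 693 of the 2534 in other deserts (27.4%). The longest had 15 peaks on chromosome 1, with summits from 143185227 to 143221001 at the far edge of the heterochromatic band. It had 70 untreated fragments at the median (47 to 203) and 137 in the etoposide library (104 to 264), and 11 of the 15 were 2-fold higher. A second run, of 12 peaks with summits from 143231453 to 143266814, had medians of 91 and 158.5. On chromosome 16 a run of 11 peaks from 34572700 to 34595524 had 77 and 99, and a run of 8 from 46386466 to 46400172 had 108 to 175 untreated fragments and an etoposide median of 157.5, on the highest backgrounds of these runs, 41.8 and 48.7. Peaks of one run share surrounding sequence and background, so they are not separate measurements.

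The ribosomal RNA genes of chromosome 21 were a separate case. RNA45SN1, RNA45SN2 and RNA45SN3 are copies of the precursor of the large ribosomal RNAs, on the short arm. They held 7 members, with 20 to 26 untreated and 24 to 33 etoposide fragments on median backgrounds of 5.62 and 7.14. Their relative ratio ran from 1.29 to 1.70, so that 0 of 7 passed 2-fold. Copies of these genes are nearly identical, and the 7 places may show the same fragments.

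Among peaks without a counterpart the etoposide list had 473 next to centromeres in deserts and the untreated list 168, whereas in other deserts it had 1495 and the untreated list 2009. Counting all peaks, shared or not, the etoposide list had 841 in deserts next to centromeres and the untreated list 537, 1.57 times as many, where the etoposide list as a whole had 0.791 times the untreated number and other deserts 0.888 times (4033 against 4543). The share with a counterpart was 68.7% of untreated peaks (64.7% to 72.5%) and 43.8% of etoposide peaks (40.4% to 47.1%) next to centromeres. In other deserts it was 55.8% and 62.9%.

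Peaks in other deserts resembled shared peaks near genes. Their median -log10 q was 11.2 in the untreated and 9.56 in the etoposide list, against 11.2 and 9.01 for shared peaks inside genes. The strongest 10% of the untreated list by -log10 q took in 18.9% of them (17.4% to 20.4%), against 18.8% of all shared pairs, and the strongest 10% of the etoposide list 16.7% (15.3% to 18.2%), against 15.4%. Next to centromeres these shares were 21.95% and 44.99%. The 2 summits of a pair were 42 bp apart at the median (quartiles 17 and 109), and 41 bp over all shared pairs. Next to centromeres they were closer, 23 bp (11 and 48), and peaks there were narrower, 256 against 365 bp in the untreated list.

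Depth inside the desert made little difference up to 1000 kb from a gene. From 100 to 200 kb the 1070 peaks had 19 and 15 fragments and a relative ratio of 1.02, and from 500 to 1000 kb the 361 peaks had 18 and 16 and 1.05. The 115 peaks beyond 1000 kb, all more than 5 Mb from the bands, had 16 and 15 fragments and a relative ratio of 1.21, with 11 (9.57%) at least 2-fold higher. They were also fainter in the untreated list, and the part of that in their ratio was not tested.

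The 5 peaks of other deserts with the highest untreated -log10 q had similar relative strength in both libraries. At chr6:23174670-23175499, inside the noncoding gene LOC105374974 and 603.4 kb from HDGFL1, there were 79 untreated and 61 etoposide fragments (relative ratio 0.993, 0.699 to 1.40). Another on chromosome 6, at chr6:48826700-48827471 and 603.0 kb from MMUT (a mitochondrial mutase), had 85 and 68 (1.03). At chr8:115055808-115056401, 352.2 kb from TRPS1, a GATA-type repressor gene, there were 76 and 60 (1.02). On chromosome 7 a peak 211.3 kb from MDFIC, inside LINC01392, had 76 and 54 (0.914), and one 146.1 kb from PPP1R3A, a glycogen-targeting phosphatase subunit gene, had 66 and 45 (0.877). For each of these 5 the interval of the ratio takes in 1.

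A few single places departed from this. At chr13:104238264-104238955, 1172 kb from SLC10A2 (a bile acid transporter), there were 24 untreated and 64 etoposide fragments, a relative ratio of 3.43 (2.12 to 5.73), and by its -log10 q it was among the 5 strongest of other deserts in the etoposide list. Between MYO16 and IRS2, an insulin signalling adaptor gene, a peak at chr13:109424136-109424338 had 10 and 26 (3.34, 1.56 to 7.77). A peak near SOX6, at chr11:15793618-15793839, counted 29 and 63 fragments, but its etoposide peak also covers the untreated peak beside it at chr11:15793007-15793498, which had 70 and 63.

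Others had fewer fragments in the etoposide library. Beside PDCD6IP, at chr3:34011445-34012195, there were 55 untreated and 12 etoposide fragments (relative ratio 0.281, 0.137 to 0.530), with the summits far apart inside the peak. In the desert below ZFAT, at chr8:134161870-134162923, there were 55 and 14 (0.327), with summits 363 bp apart. Between CXCL12, a chemokine gene of stromal cells, and TMEM72, at chr10:44569373-44569639, there were 31 and 9 (0.373, 0.156 to 0.803) with summits 9 bp apart. Near SYT4, at chr18:43892919-43893415, there were 24 and 7 (0.375). These 7 places were named for their ratios, among the highest and lowest of those with at least 20 fragments in either library. The MYO16 place met that minimum through the etoposide library alone. Those with fewer etoposide fragments met it through the untreated library alone. The intervals do not allow for this choice by ratio, so they are no test of a change.

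Members were then placed in their deserts. There were 1524 gaps of over 200 kb between neighbouring protein-coding genes outside centromeric places and the short arms of the acrocentric chromosomes. Of these, 642 (42.1%) held at least 1 member, with a median of 3. The 50 gaps with 10 or more held 699 members, 27.6% of all in other deserts. The mean was 3.49 members per Mb of ground over 100 kb from genes.

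The 7 deserts described here, among those with the most members, are flanked by genes of varied kinds. The desert beyond CITED2, a transcriptional coregulator gene on chromosome 6, had 30 members in 2.31 Mb, with a median of 23 untreated fragments (10 to 51) and 19 etoposide fragments (7 to 45). The desert between NYAP2 and IRS1, the insulin receptor substrate gene, was the densest of the 7, with 20 members in 1.03 Mb (24.2 per Mb of ground over 100 kb from genes) and medians of 19.5 and 18 fragments. The desert before HEMK2 on chromosome 21 had 20 members with medians of 16 and 16.

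PLA2G4A, the gene of the phospholipase that frees arachidonic acid, and BRINP3 bound a desert of 3.11 Mb with 19 members and medians of 14 and 15 fragments. There were 18 members in each of 3 deserts: between RFPL4B and MARCKS (an actin-binding kinase substrate), RIOK2 and RGMB (a co-receptor of bone morphogenetic proteins), and ARRDC3 and NR2F1 (an orphan nuclear receptor). The strongest of these was in the desert of NR2F1, with 77 untreated and 51 etoposide fragments at its highest. The median relative ratio in the 7 deserts ran from 0.964 (MARCKS) to 1.18 (HEMK2), and no desert of the 7 had more than 2 members that were 2-fold higher.

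**Figure D5:**
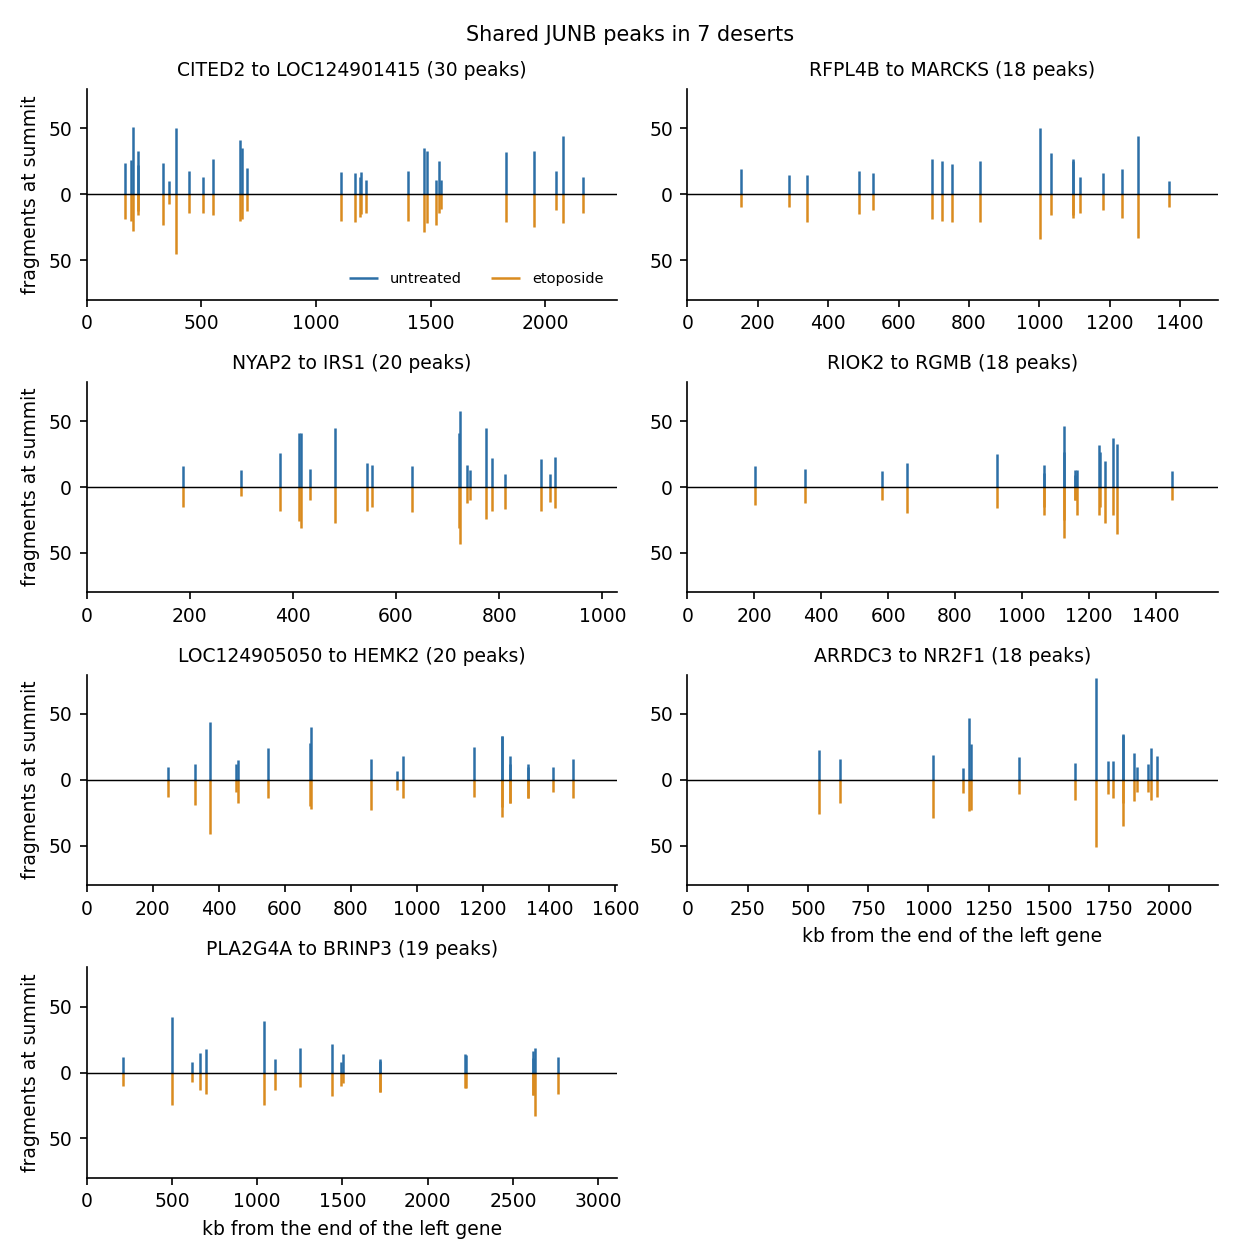
Each shared peak of 7 deserts with many of them, at its distance from the left gene (x, kb), with untreated summit fragments drawn upward and etoposide fragments downward (y). Peaks are spread over each desert with local groups, and the up and down lines have similar heights, with the highest, 77 and 51 fragments, in the desert between ARRDC3 and NR2F1.

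Large deserts could also be bare. Of 79 gaps of at least 2 Mb, 21 held no member. The longest was the 3.20 Mb between GBE1, a glycogen branching enzyme gene, and CADM2, an adhesion gene, with 1 untreated peak of its own and 0 etoposide peaks. The 2.51 Mb between TMPRSS15 (enteropeptidase) and NCAM2, a neural adhesion gene, had no peak of either list over 100 kb from genes. The gap from GRIK2 to HACE1, of 2.66 Mb, had 1 untreated peak. A bare gap in a peak list does not show absence of JUNB, since weak signal is not listed.

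The flanking genes were counted against 4 lists. All were chosen with results of these data known, and the lists of regulators and adhesion genes are known for long gaps, so the count among genes beside a gap of over 200 kb is given as well. Of 40 genes for matrix proteins and secreted factors of fibroblasts beside such a gap, 35 (87.5%) had a member there. The share was 39 of 56 (69.6%) for axon guidance and adhesion genes and 38 of 58 (65.5%) for regulators of lung and mesenchyme. Over all protein-coding genes it was 1182 of 2602 (45.4%). These genes share deserts with each other, and the gaps beside them differ in length above 200 kb, which was not matched between lists. The counts are a description.

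HAS2, which makes hyaluronan, had the most members beside it of the matrix list, 21, with medians of 17 and 15 fragments. TNC (tenascin C) had 14 with 23 and 17.5, and VEGFC, a lymphatic growth factor gene, 14 with 19 and 15. IGFBP3, a binding protein of insulin-like growth factors, had 14 with 23.5 and 14, the lowest relative ratio of the genes named from this list at 0.818. PDGFD had 12 faint ones, 10 and 12.5 (1.37). Of the regulators, NR2F1 had 18, SOX9 (cartilage and lung development) 17, ZEB2 17, KLF4 16 and TCF4 14, with relative ratios from 1.01 (SOX9) to 1.16 (TCF4). Of the adhesion genes, CDH11, a mesenchymal cadherin gene, had 18 (medians of 17 and 12 fragments), TENM3 17 (16 and 15), PCDH9, a protocadherin gene, 16 (15 and 19) and LSAMP 15 (17 and 16).

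Of 19 AP-1 genes, 3 were beside such a gap, and all 3 had a member there. They are 15.8% of the 19 (5.52% to 37.6%), an interval that takes in the 5.99% of all protein-coding genes. Among them, MAF had 4 (medians of 16 and 13.5 fragments, the nearest 597.1 kb away) and JUN 3 (14 and 13, 236.5 kb).

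Noncoding genes gave several deserts a denser annotation. In other deserts 883 summits lay in 484 long noncoding RNA genes. LOC105369844 on chromosome 12 and MIR3681HG on chromosome 2 had 11 each, the first with 23 and 17 fragments and the second with 21 and 17. DLEU1, a noncoding gene of a region lost in leukaemias, had 8, from 8 to 63 untreated and 8 to 40 etoposide fragments. SLC7A14-AS1 had 8 strong ones, with medians of 33.5 and 25.5. The longest run outside centromeres was 7 peaks in 34.0 kb, 971.0 kb from CDH2, the N-cadherin gene, with 9 to 48 untreated and 9 to 34 etoposide fragments. A run of 4 lay in CCN2-AS1, 102.5 kb from CCN2, a matricellular growth factor gene, with 20 to 26 and 11 to 23 fragments.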

How the data were processed

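The data are 2 deposited peak lists, one per library; the CUT&RUN kit and the JUNB antibody are named in the labels' protocols. Bowtie2 and MACS2, and the builds mm10 and hg38, are named per the submitters' processing notes, without settings; chromosome and contig names are those of hg38 (GRCh38). The deposited fold is the ratio of summit pileup to local background. The deposited -log10 p and -log10 q are for the summit, and the deposited score is 10 times -log10 q in whole numbers. Control libraries and read depth are not given in the sources used here.

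Fragments k and background b were solved from a fold of (k + 1)/(b + 1) and the Poisson tail above k, within 0.001 of the deposited -log10 p for 100% of peaks. In data simulated from each list this returned k for 100% of 1975 untreated and 1986 etoposide peaks, and it accepted 0.405% and 0.504% of pileups that were not whole. Each member was paired with the etoposide peak of largest overlap; 172 members share their etoposide peak with another. The relative depth, 0.836, is the ratio of lowest backgrounds divided by that of the smallest widths. Gene positions are RefSeq's for GRCh38.p14 (19974 protein-coding genes); its table names no sequence below the chromosome, so a few genes may carry positions of alternate loci. Centromeric bands were written by hand in whole Mb. Wilson and exact binomial (Clopper-Pearson) 95% intervals cover counting error alone. Python 3.11.15, pandas 2.3.3 and scipy 1.17.1 were used.

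Places named were, in each class, the 5 highest by -log10 q in each list, in other deserts the 4 highest and 4 lowest ratios, the 3 farthest from genes, those nearest the threshold, the 8 fullest deserts and up to 5 genes a list. Some genes and places that this rule names are not reported here. The members and lists were chosen with earlier results of these data known. Alternatives for distance, overlap, threshold, margin, scaling, fold, rank and background are given in the closing section. Peaks outside chromosomes 1 to 22 and X were not used.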

Additional observations from a re-analysis of the deposited data

Results flagged for a closer look

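One signal lay outside the comparisons. On contigs and alternate loci, which were left out, 475 of 927 untreated peaks (51.2%, 95% Wilson interval 48.02% to 54.5%) had at least 1 bp in common with one of the 814 etoposide peaks there. It is listed because these peaks enter no comparison; the share is close to the 51.03% of untreated peaks with a counterpart on chromosomes 1 to 22 and X. Contigs have no distance to a gene here, so which of these places are deserts was not tested.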

How the results depend on the processing

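Peak lists give no replicate spread, and weak signal below the authors' threshold is not listed, so ratios describe these 2 libraries and counting error alone. Of the alternative values, 45 stayed within the counting interval or within 1.5 times the main count, 35 moved beyond it and 2 changed direction; the cause was not tested where the setting itself does not show it. No paired analysis was possible because there was 1 library per condition. The median ratio in other deserts, 1.04, became 0.965 when divided by the relative depth and 0.807 undivided.

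Next to centromeres the median ratio, 1.71, was 1.595 with the relative depth, 1.33 undivided, 1.85 with a margin of 0 Mb, and 1.603 with 5 Mb. For pairs with at least 20 untreated fragments, an alternative chosen after seeing the data, it was 1.598 divided by the median of all pairs and 1.87 divided by the median of the pairs kept. The count of higher pairs there, 131, was 242 at 1.5-fold, 26 at 3-fold and 55 undivided, and that of lower pairs, 1, was 4, 0 and 4. In other deserts the 84 higher pairs became 388, 4 and 20, and the 32 lower pairs 228, 2 and 201.

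The 2903 members numbered 1790 at 200 kb, 758 at 500 kb and 474 over 100 kb from every annotated gene. The share of untreated desert peaks with a counterpart, 57.2%, was 39.8% with an overlap of 50% of both peaks and 61.3% at 500 kb; elsewhere, 49.9% became 32.9% with that overlap, 49.1% at -log10 q of at least 5, 49.2% at 50 kb and 50.6% at 500 kb.

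Ranked by fold, the strongest 10% of the etoposide list took in 30.6% of members next to centromeres in place of 44.99%, and that of the untreated list 16.7% of those in other deserts in place of 18.9%; ranked by fragments, that of the etoposide list took in 19.8% in place of 16.7%. A background over 3 times the untreated median held for 21.7% of members next to centromeres (17.1% over 5 times) and 6.12% in other deserts (19.9% over 2 times, 0.750% over 5 times). In the etoposide list these were 25.2% (33.9% over 2 times) and 4.78% (18.1% over 2 times, 0.316% over 5 times).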
